A study of Mus musculus with 4 samples.

Results

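The cell cycle set described here comprised 35 genes, chosen by name as transcripts that dividing cells make, out of 22631 genes in the deposited count tables. All 35 were present in the tables. They were grouped by role into 12 replication members, which copy DNA or supply its building blocks, 19 mitosis members, which drive or carry out chromosome segregation, and 4 broad members (Tuba1b, Tubb5, Hmgb2 and Stmn1), which cells that are not dividing also carry. The 31 replication and mitosis members together are called the core. Each gene was measured on its own and the set as a sum per cell, across the authors' cell types, the authors' neutrophil subsets and the tumours.

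The cells came from MC38 tumours, a murine colon carcinoma line grown in the flank of IL-12p40-IRES-EYFP mice, a strain in which cells that make the p40 chain of interleukin-12 also make a yellow fluorescent protein. All hosts carried this transgene, and tumours had grown for 7 days when the mice were either given agonist anti-CD40 antibody (5 mg/kg, injected into the peritoneum) or left untreated. Tumours were taken 2 days after that time, and CD45+ cells, the cells of blood origin, were sorted for inDrops, a droplet method that tags each captured RNA with a unique molecular identifier (UMI). The groups were 1 untreated tumour and 2 tumours after anti-CD40, called anti-CD40 1 and anti-CD40 2 after the authors' animal numbers, and the labels used here give no age or sex of the hosts.

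A cell that divides first raises the enzymes that make nucleotides and the helicase and clamp that copy DNA, then the kinases, cyclins and chromosome proteins of mitosis. Most of these transcripts are made only in the matching phase, under E2F factors for replication and under the DREAM and MuvB complexes for mitosis. Activated T cells, NK cells and immature myeloid cells can divide in tissue, whereas neutrophils stop dividing in the bone marrow before they enter the blood.

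The promoter stretches below were searched for letter patterns through which these 2 waves of genes are known to be controlled. They belong to the 2 replication and the 2 mitosis members with the most UMIs that had an entry in the RefSeq promoter table (build GRCm38.p6). Capitals mark matches, on either strand, to CCAAT (the box bound by NF-Y), to TTTGAA (the cell cycle homology region, CHR, bound by MuvB) and to 4 E2F spellings (TTTGGCGC, TTTCCCGC, TTTCGCGC and TTTGCCGC).
Mcm6, minus strand, chr1:128359706-128359855: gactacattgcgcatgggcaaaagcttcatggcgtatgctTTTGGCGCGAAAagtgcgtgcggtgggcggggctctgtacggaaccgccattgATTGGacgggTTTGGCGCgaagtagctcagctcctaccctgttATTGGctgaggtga
Pcna, minus strand, chr2:132253250-132253279: accacgggtacgATTGGtccttgaggagag
Top2a, minus strand, chr11:99024190-99024339: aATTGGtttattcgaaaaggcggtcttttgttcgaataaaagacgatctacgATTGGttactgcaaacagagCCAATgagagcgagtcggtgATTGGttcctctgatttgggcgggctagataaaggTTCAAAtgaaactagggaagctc
Cenpa, plus strand, chr5:30666776-30666805: cATTGGcttcagacctttattctcATTGGt
The Mcm6 stretch held 3 E2F matches, of which the first 2 overlap on opposite strands, and 2 CCAAT boxes. The Top2a stretch held 4 CCAAT boxes and, 23 bases before the start, a CHR read from the other strand. The 150 bases searched for Pcna and for Cenpa held CCAAT matches but no E2F or CHR match. For Pcna and Cenpa only 30 bases around the CCAAT boxes are shown. Most of the 150 bases before their RefSeq start, and nearly all of the bases shown, lie in an exon of the GENCODE gene, which starts further upstream.

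Of the 35 members, 29 had a promoter entry. In the 150 bases before the start, CCAAT was present in 8 of 11 replication promoters (72.7%), in 13 of 15 mitosis promoters (86.7%) and in 2 of 3 broad promoters, against 24.5% of 32851 promoters in the table. The CHR letters were present in 5 of 15 mitosis promoters (33.3%) and in 1 of 11 replication promoters (9.09%), against 9.07% of all promoters. An E2F spelling was present in 2 of 11 replication promoters (18.2%) and in 1 of 15 mitosis promoters (6.67%), against 1.24% of all. A match describes letters and shows no binding in these cells.

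The tables held 4440 cells and 3961141 UMIs in 12 libraries and 4 pools, and no cell barcode occurred in more than 1 library. The untreated tumour gave 1399 cells with a median of 433 UMIs, anti-CD40 1 gave 1226 cells with 979, and anti-CD40 2 gave 1815 cells with 865. Pools 1 and 2 held the untreated tumour and anti-CD40 1, and pools 3 and 4 held anti-CD40 2 alone, so that pool and tumour cannot be told apart for anti-CD40 2. The authors' class of other myeloid cells, which holds the myeloid cells that are not neutrophils, plasmacytoid dendritic cells or basophils, gave 1136, 448 and 1330 cells in the untreated tumour, anti-CD40 1 and anti-CD40 2. T cells gave 150, 48 and 135 cells, NK cells 41, 28 and 128, neutrophils 49, 700 and 215, and B cells 20, 2 and 5. The markers of each named type were present in it, and the 7 epithelial markers listed for tumour cells summed to at most 1 UMI per cell type and tumour. Cells with at least 3 UMIs of a second type's markers made up 5.47% to 14.6% of NK cells, 8.15% to 14.7% of T cells and at most 4.51% of other myeloid cells and neutrophils. In untreated T cells the 9 markers of other myeloid cells summed to 3187 UMIs per 1000000 (CPM), against 139 and 206 in the treated tumours, and in untreated NK cells to 1759 against 51.7 and 155. Their part in the results below was not tested.

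The set summed to 8258 UMIs in other myeloid cells, 956 in T cells, 784 in NK cells and 717 in neutrophils, and its make-up differed between these types. The 4 broad members gave 65.0% of the set's UMIs in other myeloid cells, mainly through the tubulins Tuba1b (33.1%) and Tubb5 (22.4%). They gave 42.1% in T cells and 43.1% in NK cells, so that most of the sum was core there. In neutrophils they gave 82.6%, of which Hmgb2 alone was 74.5% of the set. A sum over the 35 genes therefore stood mainly for tubulin in other myeloid cells and for Hmgb2 in neutrophils, and the roles are given apart from here on.

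Levels are UMIs of a gene or group per 1000000 UMIs of the cell type in that tumour (CPM), not divided by transcript length, with exact Poisson 95% intervals that cover counting error only. NK cells of anti-CD40 1 had the highest core level, and neutrophils the lowest in every tumour. In other myeloid cells the untreated tumour had 1198 CPM of the core (1110.2 to 1292), with 2145 (2029 to 2266) in anti-CD40 1 and 641 (600.1 to 683) in anti-CD40 2. The treated tumours thus lay on opposite sides of the untreated one, and anti-CD40 1 was 3.35-fold above anti-CD40 2 (95% interval from the counts 3.08 to 3.65). NK cells had 1973 CPM (1444 to 2632) untreated, 5789 (5055 to 6598) in anti-CD40 1 and 1440.1 (1235 to 1669) in anti-CD40 2. The ratio of the treated tumours was 4.02 (3.28 to 4.93) in NK cells, and the untreated and anti-CD40 2 intervals overlapped.

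T cells were flatter, at 2364 CPM (2032 to 2735) untreated, 1986 (1589 to 2453) in anti-CD40 1 and 2682 (2381 to 3011) in anti-CD40 2. Their ratio of anti-CD40 1 to anti-CD40 2 was 0.740 (0.575 to 0.945), opposite in direction to that of the myeloid and NK cells. Neutrophils had 85.2 CPM (10.3 to 308, from 2 UMIs) untreated, 111 (87.8 to 138) in anti-CD40 1 and 255 (185 to 342) in anti-CD40 2. The order of the types in the untreated tumour was T cells, NK cells, other myeloid cells and neutrophils, of which the intervals of T and NK cells overlapped. Between anti-CD40 1 and the untreated tumour, which shared pools 1 and 2, the log2 ratio of the core in other myeloid cells was 0.80 in pool 1 and 0.81 in pool 2. It was 1.01 and 2.25 in NK cells, and 0.20 and -0.60 in T cells, where the pools differed in sign.

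**Figure D1:**
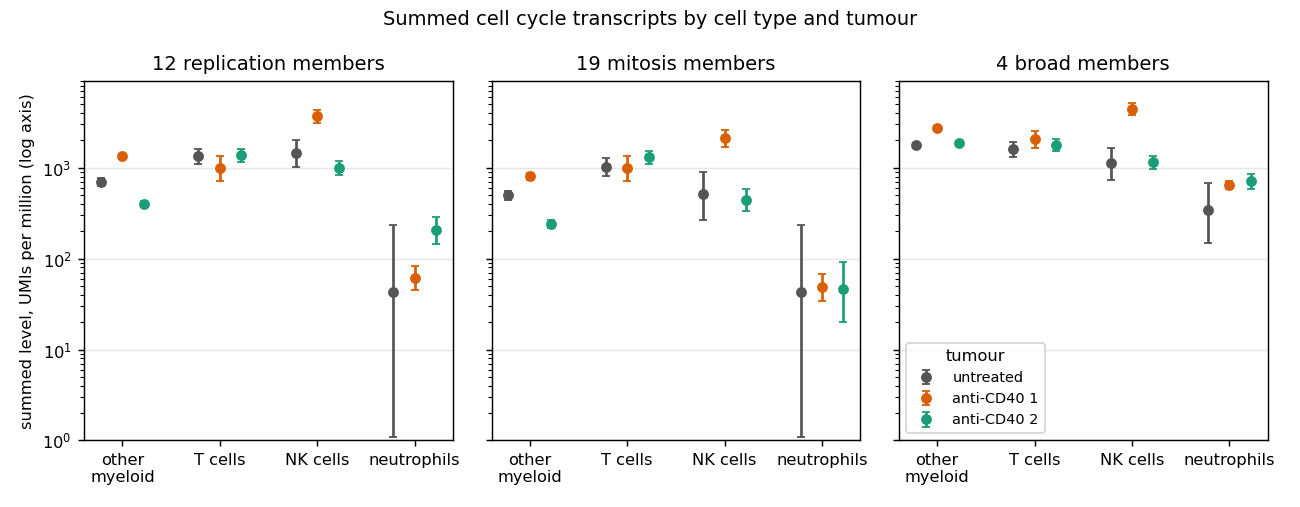
Summed level of the 12 replication, 19 mitosis and 4 broad members (CPM, log axis) in 4 cell types. Points are tumours (1 untreated, 2 after anti-CD40) and bars are exact Poisson 95% intervals; NK cells of anti-CD40 1 lie above the other tumours in all 3 panels, and neutrophils lie lowest for replication and mitosis.

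The summed replication and mitosis members had the same order of tumours in other myeloid cells. Replication members stood at 700.1, 1336 and 399 CPM in the untreated tumour, anti-CD40 1 and anti-CD40 2, and mitosis members at 498, 809 and 242. In NK cells replication stood at 1458, 3669.5 and 998 CPM and mitosis at 515, 2119 and 442, again highest in anti-CD40 1 for both roles. In neutrophils Pcna made up most of the replication sum. Mitosis members were at 42.6, 49.1 and 46.4 CPM, while replication members were at 42.6, 61.7 and 209, and the ratio of anti-CD40 1 to anti-CD40 2 in the latter was 0.296 (0.186 to 0.473). The other 11 replication members were at 0, 25.3 and 23.2 CPM there, from 0, 18 and 4 UMIs.

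Among the replication members, Pcna is the sliding clamp that holds the polymerase on DNA. In other myeloid cells it was at 179, 255 and 171 CPM in the untreated tumour, anti-CD40 1 and anti-CD40 2. In NK cells it was at 300.2, 698 and 335, and in T cells at 274, 115 and 252. Anti-CD40 1 was thus the highest tumour in myeloid and NK cells and the lowest in T cells. Mcm6, a subunit of the replicative helicase, was at 80.7, 173 and 43.3 CPM in other myeloid cells and at 257, 413 and 237 in NK cells. Its T cell levels were 169.8, 139 and 196. Pclaf, a partner of the clamp that is tied to DNA synthesis, spread widely between the treated tumours, at 213 and 13.1 CPM in other myeloid cells against 63.2 untreated. NK cells showed the same order for Pclaf, with 172, 594 and 24.5 CPM. In T cells Pclaf was at 169.8, 208 and 178, nearly level.

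The helicase subunits Mcm2, Mcm3, Mcm4, Mcm5 and Mcm7 had the same order in other myeloid cells, with every subunit highest in anti-CD40 1 and lowest in anti-CD40 2. Mcm2 gave 40.4, 99.0 and 17.9 CPM, Mcm3 56.1, 94.0 and 26.1, and Mcm7 71.9, 121 and 35.7. The Mcm7 exons overlap Mir25 and Mir93 on the same strand and Ap4m1 and Cops6 on the other, and whether the counting used strand is not given in the sources used here. Rrm1, the large subunit of ribonucleotide reductase, was at 42.1, 77.2 and 28.2 CPM in other myeloid cells and at 129, 310.1 and 81.8 in NK cells. Tk1, a thymidine kinase that salvages nucleotides, was the exception among replication members in other myeloid cells. Its levels were 68.4, 60.4 and 21.3 CPM, highest in the untreated tumour.

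**Figure D2:**
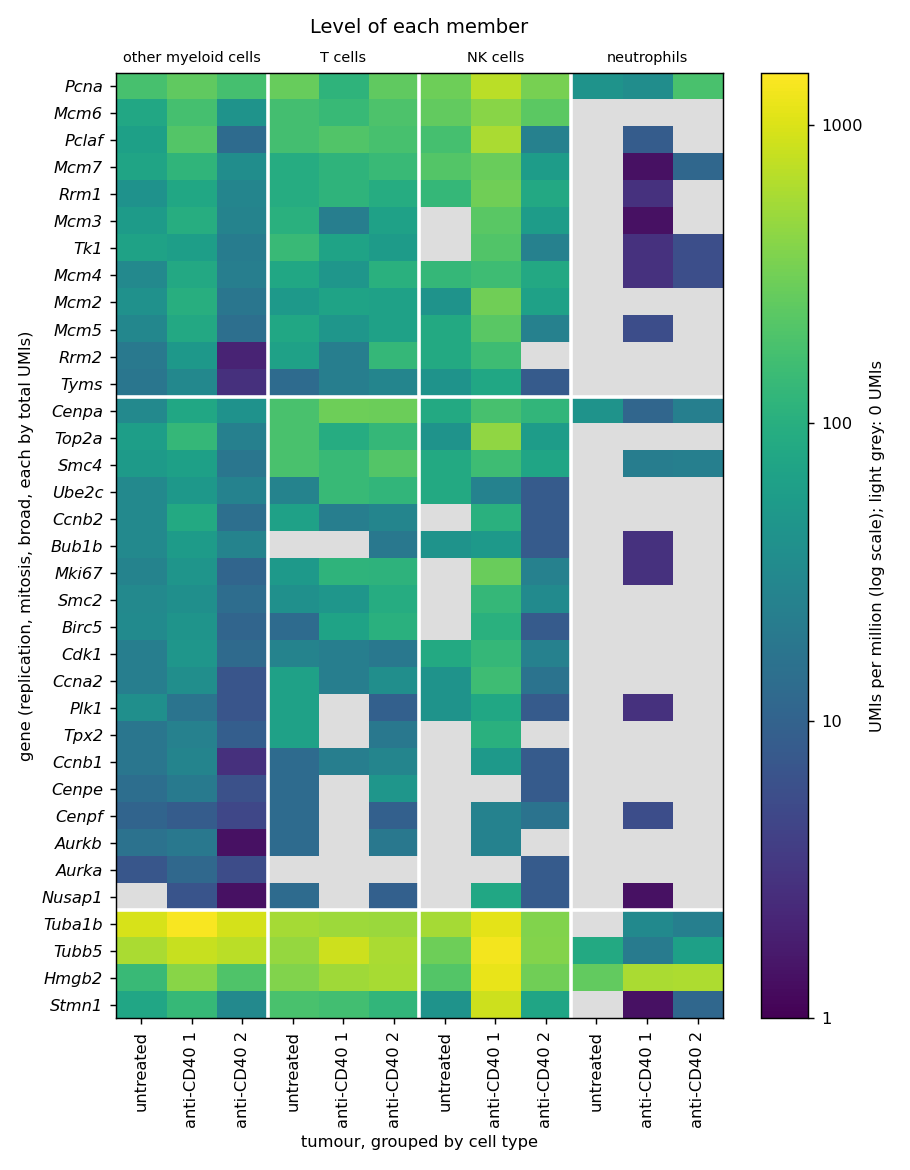
Level of each of the 35 members (rows, grouped by role) in 4 cell types of 3 tumours (columns), in CPM on a log colour scale, with light grey for 0 UMIs. Anti-CD40 1 is the brightest column for most members in other myeloid and NK cells, and the neutrophil columns are mostly grey, with Hmgb2 as their brightest row.

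Among the mitosis members, Cenpa is the histone variant that marks centromeres. T cells had 183, 300.2 and 289.7 CPM of Cenpa in the untreated tumour, anti-CD40 1 and anti-CD40 2, above the 31.6, 78.9 and 41.2 of other myeloid cells in each tumour. NK cells lay between them, at 85.8, 181 and 123. Top2a, the topoisomerase that untangles sister chromosomes, was at 59.7, 131 and 24.1 CPM in other myeloid cells. In NK cells Top2a was at 42.9, 439 and 57.3, a gap between the treated tumours of 7.67-fold (3.02 to 21.9). In T cells it was at 183, 92.4 and 131, highest in the untreated tumour. Smc4, a condensin subunit, was at 54.4, 63.8 and 17.9 CPM in other myeloid cells, 183, 139 and 215 in T cells and 85.8, 155 and 73.6 in NK cells. Mki67, the surface protein of mitotic chromosomes used as a proliferation marker, was at 26.3, 45.3 and 11 CPM in other myeloid cells and at 52.2, 115 and 112 in T cells. In NK cells no UMI of Mki67 was seen in the untreated tumour, against 284 CPM in anti-CD40 1 and 24.5 in anti-CD40 2, from 11 and 3 UMIs. The untreated NK cells held 23315 UMIs of all genes, too few to set this 0 apart from the level of anti-CD40 2.

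Plk1, the polo-like kinase of mitotic entry, and Cenpf, a kinetochore protein, were lower than untreated in both treated tumours in other myeloid cells. Plk1 was at 38.6 CPM in the untreated tumour, 16.8 in anti-CD40 1 and 6.87 in anti-CD40 2, and Cenpf at 10.5, 8.39 and 4.81. The Plk1 exons overlap Gm44985, annotated on the other strand. In T cells the Plk1 levels were 65.3, 0 and 9.35 CPM, from 6 UMIs in all. Ube2c, the ubiquitin-conjugating enzyme of the anaphase-promoting complex, was at 31.6, 48.7 and 25.4 CPM in other myeloid cells. In T cells Ube2c was at 26.1, 139 and 121, higher in both treated tumours, from 2, 6 and 13 UMIs. The remaining mitosis members were at or below 85.6 CPM in every tumour in other myeloid cells. Nusap1, Aurka and Cenpf had the fewest UMIs there and did not pass the expression filter of any treatment test.

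Among the broad members, Tuba1b and Tubb5 encode tubulins, Hmgb2 a chromatin protein and Stmn1 a microtubule destabiliser. In other myeloid cells Tuba1b was at 954, 1385 and 936 CPM and Tubb5 at 588, 816 and 709. Hmgb2 was at 142, 405 and 201 CPM in other myeloid cells, 379, 531 and 570.1 in T cells and 214, 1163 and 311 in NK cells. Of the 35 members it was the only one above the untreated value in both treated tumours in all 4 cell types, in CPM. Stmn1 followed the core, at 75.4, 134 and 30.9 CPM in other myeloid cells and at 42.9, 853 and 73.6 in NK cells.

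Cell types were compared with edgeR's quasi-likelihood test on UMIs summed per tumour and type, with the tumour as a block and Benjamini-Hochberg adjustment over 3422 genes. Of the 35 members, 21 passed the expression filter. Cenpa, Smc4, Mki67 and Rrm1 passed it only through T and NK cells, and Top2a and Pclaf did so in part. Counts of members called higher there are thus given as a description. The authors named the types by a method not given in the sources used here, possibly from the same counts, so the tests describe these classes as named. In T cells 6 members were called higher than in other myeloid cells and 1 lower, against a background of 14.1% of genes called higher and 18.9% called lower. The higher members were 4 of mitosis (Cenpa, Smc4, Mki67 and Top2a), Pclaf of replication and Hmgb2, and the lower was Tuba1b. Cenpa was higher by 2.26 ± 0.38 (log2 fold change ± SE, adjusted p = 2.8e-06) and Smc4 by 2.10 ± 0.42 (adjusted p = 5.9e-05). Mki67 differed by 1.89 ± 0.59 (adjusted p = 0.0105), Pclaf by 1.55 ± 0.50 (adjusted p = 0.0183), Top2a by 1.22 ± 0.46 (adjusted p = 0.0365) and Hmgb2 by 0.98 ± 0.36 (adjusted p = 0.0294).

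Tuba1b was lower in T cells, at -1.15 ± 0.33 (edgeR, adjusted p = 0.00485). Its levels in T cells were 562, 508 and 505 CPM, below all 3 myeloid values. The Cenpa call held under every alternative run. Smc4 did not pass the expression filter without anti-CD40 2 or after thinning and was called under the other alternatives, whereas each of the other 5 calls was lost under at least 1. Pclaf (0.67, adjusted p = 0.397) and Top2a (0.77, adjusted p = 0.487) were among those lost without anti-CD40 2. Without anti-CD40 2 only 1 of 10 tested members was called in T cells, and with DESeq2 3 of 29 were called. The replication members Pcna (-0.01 ± 0.47), Mcm2 (0.48 ± 0.56) and Mcm3 (0.37 ± 0.55) did not pass. The median over the 21 members was 1.03, beside -0.10 over all genes tested, which plain library sizes moved to 0.06. Without the filter it was 0.67 over 35 members, beside -0.48 over all genes, and 5 members were called higher.

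**Figure D3:**
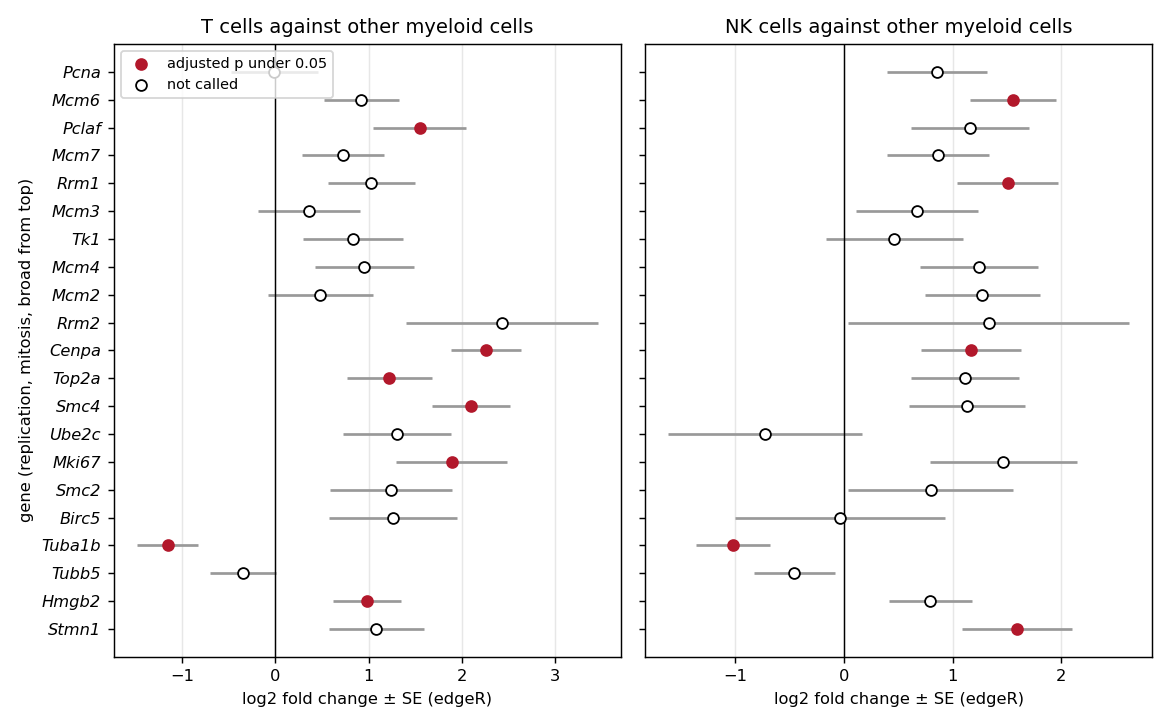
Log2 fold change with its standard error (edgeR) of the 21 members tested, in T cells and in NK cells against other myeloid cells. Red points passed an adjusted p of 0.05; in T cells the calls are mainly mitosis members, in NK cells Mcm6, Rrm1, Cenpa and Stmn1, and Tuba1b lies below 0 in both.

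In NK cells 4 members were called higher than in other myeloid cells and 1 lower, against 10.6% and 20.9% of all genes. Mcm6 was higher by 1.55 ± 0.39 (edgeR, adjusted p = 0.00150), Rrm1 by 1.51 ± 0.46 (0.00899), Stmn1 by 1.59 ± 0.51 (0.0172) and Cenpa by 1.17 ± 0.46 (0.0463). Tuba1b was lower, at -1.02 ± 0.34 (adjusted p = 0.0170). Each of the 5 calls was lost under at least 1 alternative. The count was 2 of 13 tested without anti-CD40 1, 2 of 10 without anti-CD40 2 and 8 of 23 without the untreated tumour. Without the filter 0 of 35 members were called higher and 1 lower. With plain library sizes in place of TMM, which moved the median of all genes from -0.17 to 0.05, 10 members were called. The T cell and NK cell profiles were not tested against each other.

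Neutrophils stood apart from every other type. Of the 35 members, 16 had no UMI at all in 964 neutrophils and 908814 UMIs. These were the nucleotide enzymes Tyms and Rrm2, the helicase subunits Mcm2 and Mcm6, and 12 mitosis members (Top2a, Cdk1, Ccna2, Ccnb1, Ccnb2, Birc5, Ube2c, Cenpe, Smc2, Tpx2, Aurka and Aurkb). With a limit of 3 counts over all neutrophils, Mcm6 was at least 24.5-fold lower than in other myeloid cells, Top2a at least 17.0-fold, Mcm2 at least 12.5-fold and Ube2c at least 9.71-fold. For Aurka, with few UMIs anywhere, the limit was 2.20-fold. Where 1 to 3 UMIs were seen, the ratio of other myeloid cells to neutrophils was 43.7 (7.70 to 1739.5) for Mcm3, 19.1 (6.41 to 93.4) for Mcm7, 19.2 (5.20 to 161) for Rrm1 and 19.4 (6.53 to 95.1) for Stmn1.

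In the edgeR test 17 of the 21 members were called lower in neutrophils and 1 higher, where 38.0% of all genes were lower and 27.4% higher. The tested members passed the filter mostly through their counts in the other types, so this count is given as a description. The tubulins were counted in neutrophils of both treated tumours and had log2 fold changes of -4.94 ± 0.45 (Tuba1b, adjusted p = 2.9e-13) and -3.90 ± 0.48 (Tubb5, adjusted p = 1.6e-09). Tuba1b was at 0, 32.3 and 23.2 CPM in neutrophils of the untreated tumour, anti-CD40 1 and anti-CD40 2, and Tubb5 at 85.2, 21 and 63.7. Pclaf was at 0, 8.42 and 0 CPM and Mcm4 at 0, 2.81 and 5.79, from 6 and 3 UMIs. Plain library sizes moved the median of all genes from -0.42 to -0.96 without changing the direction of the tubulins. The count was 6 of 13 tested without anti-CD40 1, which supplied 700 of the 964 neutrophils, and 8 of 10 without anti-CD40 2.

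Hmgb2 was the member called higher in neutrophils, by 1.44 ± 0.36 (edgeR, adjusted p = 4.7e-04), at 256, 593 and 608 CPM. The call was lost without anti-CD40 2 (1.11, adjusted p = 0.0743) and held under the other alternatives. Pcna (-0.83 ± 0.49, adjusted p = 0.138) and Smc4 (-0.52 ± 0.52, adjusted p = 0.382) were not called. Rrm2, at 0 UMIs in neutrophils, was not called either (adjusted p = 0.0585). Pcna was at 42.6, 36.5 and 185 CPM in neutrophils, with a ratio of anti-CD40 1 to anti-CD40 2 of 0.197 (0.113 to 0.341). The 2 pools of anti-CD40 1 gave 37.6 and 35.7 CPM of Pcna and those of anti-CD40 2 gave 208 and 173, so the pools of a tumour lay close together.

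The authors' neutrophil subsets differed in the members they carried. The subsets were named by the authors and may rest on these counts, so their levels are given with no test. Pcna had no UMI in 144 cells of N1a and was at 37.1 CPM in N1b and 27.9 in N2, against 153 (99.7 to 224) in N3 and 144 (85.3 to 228) in N5. In both N3 and N5 the Pcna level was higher in anti-CD40 2 (283 in each) than in anti-CD40 1 (84.3 and 68.6). Hmgb2 was present in every subset but N4 at 418 CPM or more, from 418 in N2 to 824 in N1a. Mitosis members stayed between 41.1 and 64.0 CPM in N1a, N1b, N2, N3 and N5. N4 held only 4 cells and 3 UMIs of the set. The 5 markers of neutrophil precursors, the marrow cells that still divide, gave 3 UMIs in all neutrophils, with Elane, Mpo, Ctsg and Ms4a3 at 0.

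To compare shares of cells at equal depth, each cell was thinned at random to 300 UMIs, which left out shallower cells (281, 29 and 67 of the other myeloid cells, 26, 1 and 8 of the T cells, 6, 1 and 6 of the NK cells and 8, 33 and 15 of the neutrophils). The share of cells with 2 or more UMIs of the 35 members was 18.7% (95% Clopper-Pearson interval 16.2 to 21.5) in untreated other myeloid cells, 25.8% (21.7 to 30.2) in anti-CD40 1 and 16.6% (14.6 to 18.8) in anti-CD40 2. Without thinning the shares were 29.3%, 60.3% and 53.6%, at median depths of 425, 1058.5 and 921.5 UMIs. The higher share of anti-CD40 2 over the untreated tumour was thus seen only without thinning. T cells had 25.8% (18.4 to 34.4), 27.7% (15.6 to 42.6) and 20.5% (13.8 to 28.5) after thinning, and 34.0%, 50.0% and 48.9% before it. NK cells had 5.71% (0.700 to 19.2), 33.3% (16.5 to 54.0) and 10.7% (5.80 to 17.5), and 22%, 64.3% and 39.1% unthinned.

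Neutrophils had the lowest share of the set, at 2.44% (0.0617 to 12.9), 2.85% (1.72 to 4.41) and 3.50% (1.42 to 7.08). Unthinned, 2.04%, 19.6% and 15.8% of neutrophils passed. The mean of the treated tumours minus the untreated one was 2.49 percentage points in other myeloid cells, -1.74 in T cells, 16.3 in NK cells and 0.735 in neutrophils. The SD between the 2 treated tumours was 6.47, 5.08, 16.0 and 0.461 points. With 1 untreated tumour against 2, no exact test could reach a small p, and none was made. In other myeloid and T cells the difference was smaller than that spread.

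With the broad members left out, the share of cells with 2 or more core UMIs was 6.43% (4.88 to 8.29) in untreated other myeloid cells, 9.31% (6.70 to 12.5) in anti-CD40 1 and 1.74% (1.09 to 2.63) in anti-CD40 2. The interval of anti-CD40 2 lay below both others. T cells had 16.1% (10.1 to 23.8), 8.51% (2.37 to 20.4) and 13.4% (8.0 to 20.6), with overlapping intervals. NK cells had 5.71% (0.700 to 19.2), 29.6% (13.8 to 50.2) and 3.28% (0.900 to 8.18). In neutrophils 2 of 908 thinned cells passed, 0.220% (0.0267 to 0.793), at median depths of 466, 963 and 745 UMIs before thinning. Whether these UMIs came from free RNA was not tested. In N1a, N1b and N2 no cell passed, and the limit for N2, the largest subset, was 1.22%. Across the 4 libraries of a tumour the core share in other myeloid cells ran from 4.80% to 9.62% untreated, from 7.69% to 11% in anti-CD40 1 and from 0.322% to 2.53% in anti-CD40 2. The libraries split the cells of a tumour and are not replicates, and those of anti-CD40 2 came from pools with no other tumour.

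**Figure D4:**
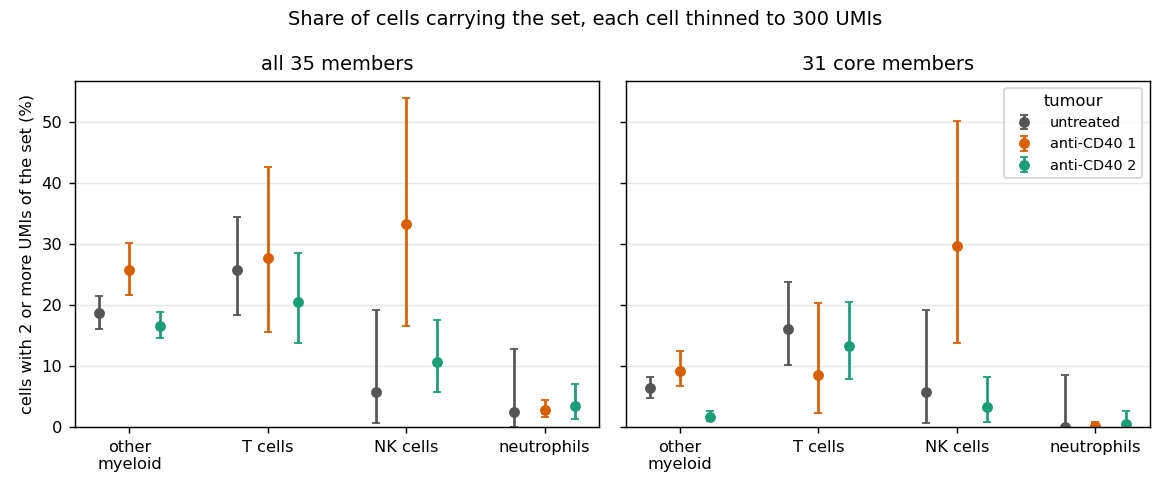
Share of cells with 2 or more UMIs of all 35 members (left) or of the 31 core members (right) after thinning to 300 UMIs, by cell type and tumour. Bars are exact Clopper-Pearson 95% intervals; leaving out the broad members lowers other myeloid cells from 16.6% to 25.8% down to 1.74% to 9.31%, and neutrophils lie at or near 0.

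After anti-CD40, no member was called in any cell type by edgeR's quasi-likelihood test with Benjamini-Hochberg adjustment. In other myeloid cells 32 members were tested, where 0.409% of 7099 genes were called, and 2 members had an unadjusted p under 0.05. In T cells 14 were tested (2.09% of 1865 genes called) and none had an unadjusted p under 0.05. In NK cells 11 were tested (1.89% of 794 genes) and 2 had one, and in neutrophils 3 were tested (0.442% of 2713 genes) and 1 had one. DESeq2 called no member in any of the 4 types. The fits left 1 residual degree of freedom and take the spread of the treated pair to hold for the untreated tumour as well. The samples came from 3 animals, and the p-values rest on a variance shared over genes.

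The members with the smallest unadjusted p in other myeloid cells were Plk1 and Hmgb2, which pointed in opposite directions. Plk1 had a log2 fold change of -1.83 ± 0.62 (edgeR, adjusted p = 0.340) and Hmgb2 one of 1.07 ± 0.45 (adjusted p = 0.484). Cenpa followed with 0.87 ± 0.49 (adjusted p = 0.643) and Tk1 with -0.86 ± 0.53 (adjusted p = 0.708). In NK cells Hmgb2 had 1.63 ± 0.75 (adjusted p = 0.376), Tubb5 1.37 ± 0.69 (0.444), Top2a 2.26 ± 2.15 (0.743) and Pcna 0.67 ± 0.65 (0.750) by edgeR. The wide errors of Top2a and of Stmn1 (3.08 ± 5.32) came with treated tumours that lay far apart. In T cells the first 4 were Ube2c at 2.21 ± 1.38 (edgeR, adjusted p = 0.591), Tubb5 at 0.54 ± 0.36 (0.634), Hmgb2 at 0.54 ± 0.38 (0.668) and Cenpa at 0.67 ± 0.49 (0.676). In neutrophils Hmgb2 had 1.80 ± 0.84 (edgeR, adjusted p = 0.440), Pcna 1.81 ± 1.38 (0.622) and Tubb5 -0.63 ± 1.36 (0.886), on 8 untreated UMIs of the broad members in all. Plain library sizes moved the median of all genes in neutrophils from 0.29 to -0.28, while the 3 members kept their signs. The median of the tested members was 0.12 in other myeloid cells, 0.09 in T cells and 0.67 in NK cells, beside 0.02, 0.03 and 0.05 over all genes tested.

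Whether the treatment effect differed between cell types was tested as an interaction in a joint edgeR fit over 26 members. No member was called for T cells (0.286% of 4538 genes), NK cells (0.132%) or neutrophils (0.132%) against other myeloid cells. At an unadjusted p under 0.05 there were 1, 3 and 0 members, and DESeq2 called none in any of the 3 contrasts.

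The treated tumours differed from each other in a direction shared by most members. In other myeloid cells 32 of 32 tested members were higher in anti-CD40 1 than in anti-CD40 2 in CPM, as were 63.1% of all genes tested. In 27 of the 32 anti-CD40 1 lay above and anti-CD40 2 below the untreated tumour, an order seen in 20.1% of all genes. With TMM scaling these counts were 31 (49.0% of genes) and 25 (12.7%). The exceptions to the second order were Hmgb2, Tubb5 and Cenpa, which were above the untreated value in both treated tumours, and Plk1 and Tk1, which were below it in both. The 3 and 2 members with these orders compare with 34.8% and 37.1% of all genes. Cenpe and Aurkb passed the expression filter through anti-CD40 1 alone, so that they were highest there was set by the filter. Genes of the set share cells and libraries, so the counts are not independent observations.

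NK cells showed part of the same pattern, in 28 cells of anti-CD40 1. All 11 tested members were higher in anti-CD40 1 than in anti-CD40 2, as were 53.3% of the genes tested. Of these, 6 were above the untreated tumour in both treated tumours (39.9% of all genes) and 5 above it in anti-CD40 1 and below it in anti-CD40 2 (12.3%). The expression filter could be passed through anti-CD40 1 alone, as Pclaf, Rrm1, Mcm2, Mcm7, Top2a and Stmn1 did. The order in NK cells was thus partly set by the filter, and these counts are given as a description. In T cells 7 of 14 were higher in anti-CD40 1 than in anti-CD40 2, near the 52.9% of all genes. T cells thus showed no shared order of the treated tumours.

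The core transcripts sat in few cells. In other myeloid cells 65 of 2914 cells held 10 or more core UMIs and with them 41.6% of the type's core UMIs. These were 8 cells of the untreated tumour, 43 of anti-CD40 1 and 14 of anti-CD40 2. In anti-CD40 1 they were 9.60% (7.03 to 12.7) of the cells and held 69.5% of the core UMIs, against 0.704% (0.305 to 1.38) and 14.8% in the untreated tumour. These cells were deep, with a median of 2836 UMIs in anti-CD40 1 against 747 in cells with no core UMI. In T cells 12 of 333 cells held 39.7% of the core UMIs and in NK cells 12 of 197 held 64.1%. The 7 such NK cells of anti-CD40 1 held 85.7% of that tumour's NK core UMIs, so its NK level rests on these cells. No neutrophil held 5 or more core UMIs. Of the cells with 3 or more core UMIs after thinning, 3 of 50 myeloid cells, 2 of 19 T cells and 2 of 12 NK cells carried markers of a second type.

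The myeloid cells that carried the core differed between the tumours in their other transcripts. For this comparison the cuts were chosen after seeing the data, and no test was made. C1qa and Apoe mark macrophages and Ly6c2 and Chil3 mark monocytes, and the former were common in the core-loaded cells of the untreated tumour, the latter in those of anti-CD40 1. After thinning to 300 UMIs, 25 of 26 untreated cells with 3 or more core UMIs had a UMI of C1qa (96.2%, 80.4 to 99.9), against 56.9% of the other 829 cells. Ly6c2 and Chil3 were seen in 0 of these 26 cells, for a limit of 11.5%. In anti-CD40 1, C1qa was seen in 0 of 20 such cells, for a limit of 15.0%, against 21.3% of the other 399. Chil3 was seen in 10 of the 20 (50.0%, 27.2 to 72.8) against 16.0% of the rest, and Ly6c2 in 8 (40.0%, 19.1 to 63.9) against 16.8%. Not every marker measured parted this way. Ccr2, another monocyte gene, was seen in 15.4% of the 26 untreated cells and in 10% of the 20. The rest of the cells of these tumours gave 14.1% and 3.51%. Adgre1, another macrophage gene, was seen in 7.69% of the 26, against 7.72% of the other untreated cells, and in 0 of the 20. In anti-CD40 2 only 4 cells reached the cut, too few to describe.

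A like contrast appeared without thinning, in cells with 5 or more core UMIs. All 30 such untreated cells carried C1qa and 1 carried Ly6c2, while 52 of 61 in anti-CD40 1 carried Ly6c2 (85.2%, 73.8 to 93.0) and 7 carried C1qa. In cells with 0 to 4 core UMIs, C1qa was in 61.1% untreated and 34.6% in anti-CD40 1, and Ly6c2 in 9.40% and 24.3%. Median depths of the core-loaded cells were 759 UMIs untreated and 2750 in anti-CD40 1, against 420.5 and 920 in the rest. Depth was not equalised in these unthinned shares. C1qb and C1qc were each seen in 28 of the 30, and in 16 and 14 of the 61. In anti-CD40 2, 16 of 21 carried C1qa and 6 carried Ly6c2, against 62.9% and 12.2% of the rest, at median depths of 2137 and 915 UMIs. Within pools 1 and 2, the Ly6c2 share in anti-CD40 1 was 83.3% and 87.1%, and C1qa was in 100% of the untreated cells of both. Prtn3, a granule protease of early myeloid cells, was seen in 15 of 61 core-loaded cells of anti-CD40 1 (24.6%) and in 9 of its other 387 (2.33%), while Elane was seen in 2 of the 61 and Mpo in 1. For comparison, C1qa was seen in 8.06%, 2.13% and 0.787% of thinned T cells of the untreated tumour, anti-CD40 1 and anti-CD40 2, and Ly6c2 in 4.03%, 2.13% and 6.30%, the last above the 4.43% of other myeloid cells of anti-CD40 2. Chil3 was seen in none of them. Neutrophils carried both, Ly6c2 in 0%, 15.7% and 9.5% and Chil3 in 4.88%, 13.8% and 18.5% of thinned cells. The T cells had median depths of 492, 782 and 670 UMIs before thinning and the other myeloid cells 512, 1131 and 989. Neutrophil markers were seen in 45% of the 20 core-loaded cells of anti-CD40 1 against 16.5% of the rest, and in 11.5% of the 26 untreated ones against 6.15%, after thinning. The 4 core-loaded cells of anti-CD40 2 were too few for such a share. Their part in the result was not tested. The 8 neutrophil markers summed to 316, 2217 and 1029 CPM in other myeloid cells of the untreated tumour, anti-CD40 1 and anti-CD40 2, and their part in this contrast was not tested.

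**Figure D5:**
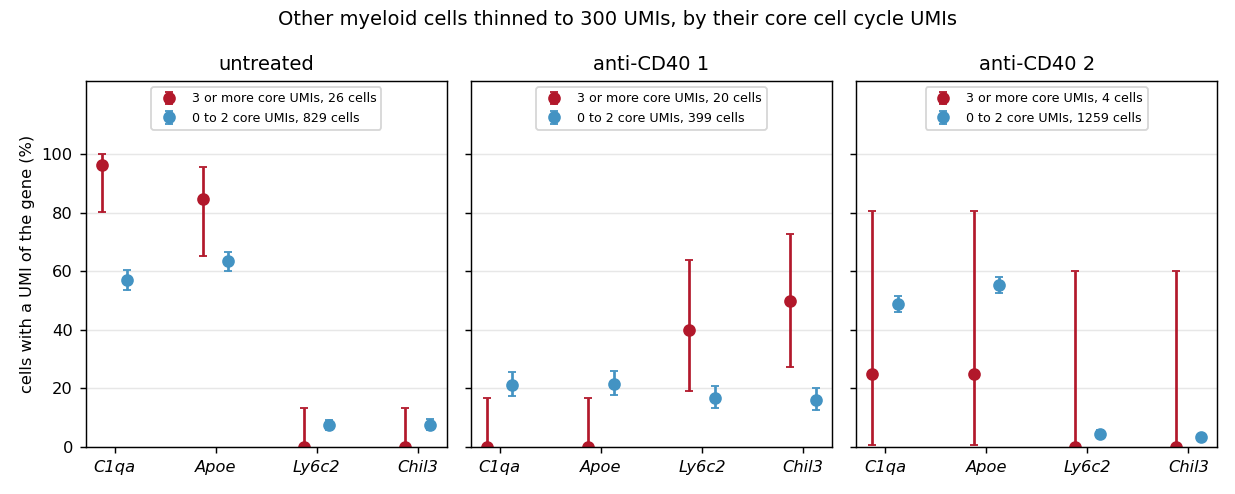
Percent of other myeloid cells with a UMI of C1qa, Apoe, Ly6c2 or Chil3 after thinning to 300 UMIs, for cells with 3 or more core UMIs and for the rest, in each tumour, with exact Clopper-Pearson 95% intervals. Core-loaded cells of the untreated tumour mostly had C1qa (96.2%) and none had Chil3, and those of anti-CD40 1 had no C1qa and 50.0% had Chil3.

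Members differed in how closely they kept company with the rest of the core. Of 23 other myeloid cells with a UMI of Ccnb1, the cyclin of mitotic entry, 91.3% held 2 or more UMIs of other core members, against 13.4% of the cells without Ccnb1. Plk1 followed at 90.9% of 33 cells, Ccna2, the cyclin of S phase and G2, at 85.7% of 35, and Pclaf at 83.0% of 94. Pcna was the loosest of the core, at 24.2% of 389 cells against 8.59% of the cells without it. The tubulins were as loose, with 24.3% for Tuba1b and 25% for Tubb5, and Hmgb2 gave 37.8%. Cells with a UMI of a member were deeper than cells without one (for Pclaf a median of 1497.5 against 644 UMIs), and depth was not equalised in these shares. After thinning, cells with a replication UMI also had a mitosis UMI more often than the rest, in 15.8% against 6.12% of other myeloid cells, 34.8% against 15.3% of T cells and 19% against 4.93% of NK cells. In neutrophils 1 of 25 cells with a replication UMI had a mitosis UMI.

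Other genes of the cell cycle, taken from 4 lists (further replication genes, further mitosis genes, the G1 engine of cyclins and kinases, and brakes), were measured beside the members. After anti-CD40, 1 of 72 such genes tested in other myeloid cells was called by edgeR, and 3 had an unadjusted p under 0.05. The called gene was Ccnd1, cyclin D1, which fell by 2.10 ± 0.38 on the log2 scale (edgeR, adjusted p = 0.0203), at 195 CPM in the untreated tumour and 53.7 and 37.8 after anti-CD40. Both treated tumours lay below the untreated one, but the call was lost with DESeq2 (adjusted p = 0.482) and without any of the 4 pools (0.0529 to 0.186). In T cells, NK cells and neutrophils edgeR called none of the 15, 11 and 21 genes of these lists that were tested, of which 4, 0 and 4 had an unadjusted p under 0.05, and DESeq2 called none.

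Between cell types, 8 of 9 tested brakes of the cycle were called higher in neutrophils and Trp53 was lower. Over all genes 27.4% were higher and 38.0% lower. The list held 19 brakes, and Gadd45a passed the filter through neutrophils alone and Cdkn2d largely so. The count of brakes is thus a description. Gadd45a, a stress-induced inhibitor of the cycle, differed by 4.40 ± 0.41 (edgeR, adjusted p = 4.6e-13), at 213, 797 and 614 CPM against 15.8, 31.9 and 52.2 in other myeloid cells. Btg2, an antiproliferative factor, differed by 2.31 ± 0.30 (adjusted p = 6.8e-09) and Cdkn2d, an inhibitor of CDK4 and CDK6, by 2.46 ± 0.36 (adjusted p = 8.4e-08). Of 9 further mitosis genes, 2 were higher and 5 lower. Among them Lmnb1, a nuclear lamin, was higher by 3.74 ± 0.35 (edgeR, adjusted p = 5.8e-13) and Ran, the GTPase of nuclear transport and the spindle, lower, at -3.18 ± 0.46 (adjusted p = 5.3e-08). Lmnb1 was at 1491, 1367 and 2115 CPM in neutrophils against 137, 156 and 158 in other myeloid cells, above them in every tumour. Of 7 further replication genes 4 were lower, and of 5 G1 genes 4 were lower and 1 higher. Some of these genes (Racgap1, Dut, Rpa2 and Myc) had no UMI in neutrophils and passed the filter through other types, so these counts are a description.

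In T and NK cells the inhibitor Cdkn1a, which codes for p21, was lower than in other myeloid cells, at log2 fold changes of -2.61 ± 0.35 (edgeR, adjusted p = 4.7e-08) and -3.51 ± 0.41 (adjusted p = 9.4e-10). It was at 1383, 1234 and 1449 CPM in other myeloid cells, at 261, 346 and 178 in T cells and at 257, 181 and 73.6 in NK cells. The G1 kinase Cdk6 was higher by 1.74 ± 0.34 in T cells (edgeR, adjusted p = 3.4e-05) and by 1.65 ± 0.36 in NK cells (2.1e-04). Cyclin D2, Ccnd2, was higher by 1.42 ± 0.33 (4.5e-04) and 1.24 ± 0.34 (0.00305). In NK cells Dut, which clears dUTP before DNA synthesis, was higher by 3.04 ± 0.45 (edgeR, adjusted p = 5.6e-07), at 257, 698 and 147 CPM against 43.9, 63.8 and 10.3 in other myeloid cells. H2ax, a histone that marks DNA breaks, was higher there by 1.74 ± 0.53 (adjusted p = 0.00889). In T cells the inhibitor Cdkn1b was higher by 1.78 ± 0.40 (edgeR, adjusted p = 3.8e-04) and Ccng2, an atypical cyclin of resting cells, by 1.68 ± 0.46 (0.00291). Of 9 brakes tested in T cells 2 were higher and 2 lower (Cdkn1a and Btg2), against 14.1% and 18.9% of all genes.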

How the data were processed

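Droplet RNA of 4440 cells from 3 tumours was analysed. The tables deposited by the authors hold raw UMI counts, in whole numbers, by cell and gene. The submitters' processing notes name bcl2fastq, STAR and GRCm38; no source used here gives their versions, the counter, annotation, strand use, cell filter or doublet treatment. Tumour, library, pool, cell type and neutrophil subset came from the authors' table of cells. No cell was removed (180 to 3678 UMIs per cell) and no doublet caller was run; as an alternative, cells with at least 3 UMIs of a second type's markers were left out.

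Counts summed by tumour and cell type were tested with edgeR 4.0.16 in R 4.3.3 (TMM, filterByExpr, robust quasi-likelihood F test, Benjamini-Hochberg over the genes tested, threshold 0.05); standard errors derive from the F statistic. Cells and libraries of a tumour were not treated as replicates. Prior degrees of freedom were 15.89 in other myeloid cells, 44.43 between types and infinite in the remaining fits, where the variance is taken as known. Alternatives were DESeq2 1.42.0, plain library sizes, no filter, no tumour block, cells thinned to 300 or 500 UMIs, and left-out pools or tumours. The edgeR tests of other myeloid cells after anti-CD40 and of T cells against other myeloid cells were also run on simulated counts. The simulation used a fixed spread and changed well-counted genes only, so the recovery of changes at low counts was not assessed. Percent intervals are exact Clopper-Pearson, level intervals exact Poisson and ratio intervals conditional binomial, at 95%, and cover counting error only.

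The members and lists were chosen with earlier results of these data known. Genes named with values were the 3 members with the most UMIs of each role, members called in a comparison (up to 12 smallest adjusted p), the 4 smallest unadjusted p per treatment test, and called genes of other lists (up to 5 per comparison). Other genes given by value, among them Mcm subunits, Stmn1, Mki67, Aurka, Ccnb1 and the myeloid state genes, were picked after their values were seen.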

Additional observations from a re-analysis of the deposited data

Results flagged for a closer look

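B cells entered no comparison, because the untreated tumour gave 20 of them and the treated tumours 2 and 5. Their core level was nonetheless among the highest measured, at 3968 CPM (2981 to 5178, from 54 UMIs) in the untreated tumour and 3397 CPM (1755 to 5933, from 12 UMIs) in anti-CD40 2. In all tumours 3 of 27 B cells held 64.2% of the core UMIs. No group had 4 samples, so no sample could be tested as standing apart.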

How the results depend on the processing

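Counts of members called between cell types depended most on the processing, and the number of members tested changed with it. In T cells 7 of 21 tested members were called in the reported fit. The count was 3 of 29 with DESeq2, 3 of 15 without the tumour block and 2 of 7 after thinning. It was 8 of 13 without anti-CD40 1, 1 of 10 without anti-CD40 2 and 8 of 23 without the untreated tumour. In NK cells, 5 of 21 as reported, it was 3 of 29 with DESeq2, 1 of 35 without the filter and 3 of 15 without the block. With plain library sizes it was 10 of 21, after thinning 1 of 7, and with a tumour left out 2 of 13, 2 of 10 or 8 of 23. In neutrophils, 18 of 21 as reported, it was 28 of 35 without the filter, 11 of 15 without the block and 6 of 7 after thinning. With a tumour left out it was 6 of 13, 8 of 10 or 21 of 23. Thinning leaves fewer UMIs and removing the filter adds genes; the cause was otherwise not tested.

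The treated minus untreated difference of the share of cells with 2 or more UMIs was 27.6 points in other myeloid cells, 15.4 in T cells and 15.7 in neutrophils without thinning, and 6.76 in neutrophils at 500 UMIs. With a pool left out it ran from -15.6 to 13 in T cells, where the untreated share was 12.9% in pool 1 and 38.7% in pool 2, and from -1.58 to 3.17 in neutrophils. After anti-CD40, Pcna in NK cells was -0.17 without pool 2 and 7.78 without pool 1, and Tubb5 in neutrophils was 5.73 without pool 2 and -1.57 without pool 1, each on few untreated UMIs. The other log2 values named after anti-CD40 kept their direction under the alternatives run. Depth limits all values on untreated neutrophils (49 cells) and on NK cells of anti-CD40 1 (28 cells). The tests after anti-CD40 could not be paired, because the tumours compared share no replicate number that marks a common animal. The tests between cell types used the tumour as a block.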
